A study of Mus musculus with 5 samples.

Results

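Neat1, Malat1, Meg3, Rian, Mirg, Miat, Gas5 and Snhg11 are 8 genes whose long RNAs are abundant in the nucleus, are transcribed from an imprinted region, or both. They were taken by symbol from the 55385 genes counted in total RNA of mouse hippocampus, and all 8 were found. The libraries came from 3 month old C57/bl6 males: 1 library from an untreated control (0 h), 1 taken 1 h into the response to kainic acid, 2 taken at 4 h and 1 at 8 h, all timed from seizure onset. Kainic acid, an agonist of glutamate receptors, was injected intraperitoneally at 20 mg/kg. Counts on genes came to 19100374 in the control, 17744508 at 1 h, 18250114 and 19109204 in libraries 1 and 2 in the 4 h pair and 16612225 at 8 h. With 1 library at 3 of the 4 time points, a difference there has no replicate check, and all 3 comparisons with the control share the 1 control library. The labels do not say that the 2 libraries at 4 h are separate animals, so p-values measure only the spread between these samples.

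Long non-coding RNAs act without being translated, and many stay in the nucleus. Neat1 is the scaffold of paraspeckles, while Malat1 accumulates in nuclear speckles, where splicing factors are stored. Meg3, Rian and Mirg are expressed from the maternal chromosome of the imprinted Dlk1-Dio3 region, and Rian and Mirg host snoRNAs and miRNAs respectively. Miat is a nuclear RNA of neurons, and Gas5 and Snhg11 carry snoRNAs in their introns, as host genes do.

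In the GENCODE annotation of GRCm38, Neat1 lies on the minus strand at chr19:5824708-5845478 with an exon length of 20771 bases, and Malat1 follows on the same strand at chr19:5795690-5802672 with 6983 bases. Meg3 (chr12:109541001-109571726), Rian (chr12:109603940-109661716) and Mirg (chr12:109729764-109749460) lie on the plus strand of one chromosome, with exon lengths of 18089, 18234 and 7292 bases. Miat is on the minus strand at chr5:112213228-112229395, Gas5 on the plus strand at chr1:161034422-161038539, and Snhg11 on the plus strand at chr2:158375638-158386145, which the annotation lists as protein coding. Opposite-strand exons cover 24.3% of the exon length of Miat, 6.79% of Meg3 and 6.49% of Malat1. The library kit keeps strand, but the strand setting of the counting is not given in the sources used here, so reads of these antisense partners cannot be told apart from reads of the 3 genes. Same-strand small RNA genes share 17.8% of the exon length of Gas5, and the 10 snoRNA genes within Gas5 were listed at 0 in all libraries. Of the 2 snoRNA genes within Snhg11, 1 had counts. They were 107 in the control, 95 at 1 h, 85 and 76 in libraries 1 and 2 at 4 h and 83 at 8 h. How the counting treated shared bases is not stated.

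Mirg and its flanks hold the sequences a reader would look for first, because the RNA is processed into miRNAs that target neuronal mRNAs. RefSeq (GRCm38.p6) gives 26 mature miRNAs from 14 hairpins within Mirg, with 25 different seeds, and 106 mature miRNAs between the start of Meg3 and the end of Mirg. The only seed found more than once within Mirg is that of miR-453 and miR-496a-5p. These 2 are shown with miR-541-5p, whose hairpin also had counts, and with miR-134-5p, known from dendrites of hippocampal neurons. Capitals mark the seed, bases 2 to 8.
mmu-miR-453: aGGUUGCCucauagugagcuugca
mmu-miR-496a-5p: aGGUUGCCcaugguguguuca
mmu-miR-541-5p: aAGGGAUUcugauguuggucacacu
mmu-miR-134-5p: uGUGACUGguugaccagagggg

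Libraries differed in ways that the time points do not describe. The share of reads on no gene was 24.7% in the control, 29.0% at 1 h, 33.1% and 25.3% in libraries 1 and 2 in the 4 h pair and 30.9% at 8 h. All 5 choroid plexus markers had counts, with Ttr the most abundant, and their summed level was 3976 CPM (counts scaled to a common library size, with TMM factors) in the control, 1679 at 1 h, 29.0 and 4248 in the 4 h pair and 3091 at 8 h. Library 1 at 4 h therefore held almost none of the choroid plexus signal that library 2 held. The 8 oligodendrocyte markers, led by Mbp, summed to 3446, 4300, 4065, 5241 and 3401 CPM in the same order. The 12 activity-induced mRNAs summed to 345 CPM in the control, 6635 at 1 h, 6102 and 2145 in the 4 h pair and 491 at 8 h, so the seizure response was present and was stronger in library 1 of the 4 h pair. For the 8 genes, levels and ratios at 4 h are given for each library, while log2 changes of other genes and of lists are fitted over both. The part of these differences in any result was not tested.

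**Figure D1:**
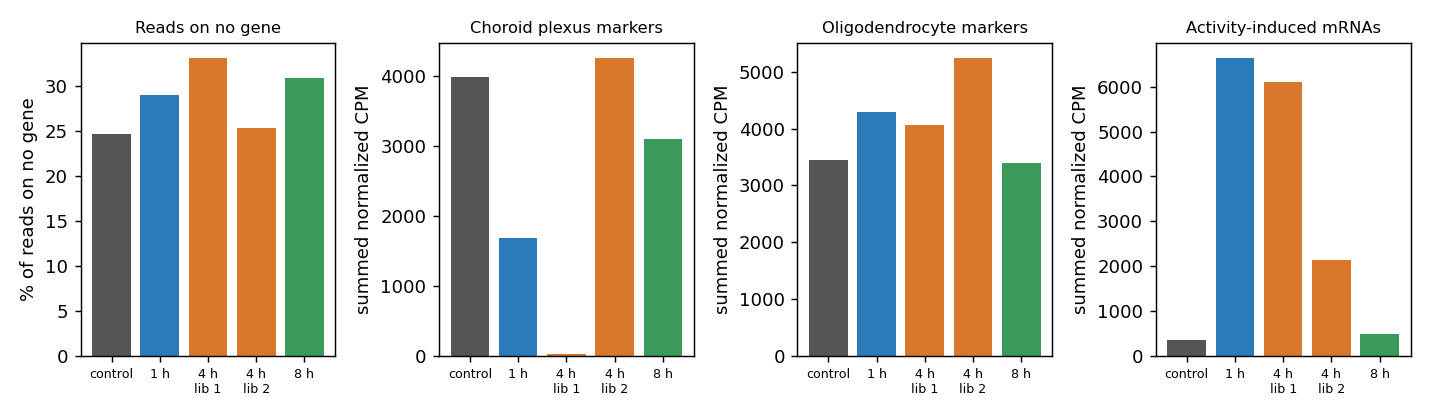
Bars give the percent of reads on no gene, and the summed normalized CPM of choroid plexus markers, oligodendrocyte markers and activity-induced mRNAs, in each of the 5 libraries. Library 1 at 4 h has the highest share of reads on no gene (33.1%) and a choroid plexus sum of 29.0 CPM against 4248 in library 2.

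Per length of exon, Malat1 stood far above the rest, with a mean level over the 5 libraries of 2607 RPKM (reads scaled to exon length and library size). Snhg11 followed at 63.7 and Miat at 34.9 RPKM. Gas5 (24.5), Rian (20.7) and Meg3 (17.6) came next, and Mirg (9.85) and Neat1 (6.71) were lowest. Gas5 ranged from 21.5 to 26.2, Rian from 18.5 to 25.5, Meg3 from 15.5 to 19.6, Mirg from 6.94 to 15.6 and Neat1 from 2.69 to 11.6, so neighbours in this order overlap between libraries. Within each library Rian was above Meg3 and Meg3 above Mirg in all 5, while Gas5 and Rian changed order in library 1 of the 4 h pair and Mirg and Neat1 at 8 h. The identifiers of Rian and Snhg11 carry another version than in the annotation used for exon lengths, so the RPKM of these 2 may rest on a gene model other than the one counted. Together the 8 genes took 1.62% of gene counts in the control, 1.93% at 1 h, 2.21% and 1.90% in the 4 h pair and 2.34% at 8 h, of which Malat1 alone was 1.43%, 1.73%, 2.01%, 1.74% and 2.16%.

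Neat1, the paraspeckle scaffold, was the gene of the 8 with the widest range as a ratio of the highest to the lowest library (4.32). Its normalized level was 55.9 CPM in the control (95% Poisson interval 52.7 to 59.3), 135 at 1 h, 242 and 116 in the 4 h pair and 148 at 8 h. All 4 libraries after seizures lay above the control, and the lowest of them was library 2 at 4 h. The ratio to control was 2.41 at 1 h (95% binomial interval 2.25 to 2.59), 4.32 and 2.08 in the 4 h pair and 2.65 at 8 h (2.47 to 2.85). These intervals cover counting error only. The 4 h pair differed from each other by a ratio of 2.08, a log2 difference of 1.06, against a standard deviation of 0.46 for the same log2 difference over 9976 genes with a mean of at least 10 CPM. The 4 h level was thus 179 ± 88.7 CPM (SD, n = 2). Fitted log2 fold changes for the 1 h, 4 h and 8 h time points were 1.27 ± 0.49 (SE), 1.68 ± 0.46 and 1.41 ± 0.50, with adjusted p of 1, 0.341 and 1.00 in edgeR's quasi-likelihood test, adjusted after Benjamini-Hochberg. Neat1 was not called at any time point, although its level was higher in 4 of 4 libraries. Over the 8 alternative analyses with a test, the adjusted p of Neat1 ran from 1.59e-05 to 1 (1 h), from 3.89e-12 to 0.614 (4 h) and from 2.29e-06 to 1 (8 h). The lowest came from the edgeR fit without a filter on low counts, which called all 3, and scaling by library size alone called the 4 h comparison. Between 4 h and 1 h the log2 difference was 0.41, and it was -0.22 without library 1 at 4 h. From lowest to highest, the libraries had the same order for Neat1 as for the share of reads on no gene, and what part that share had in the level was not tested.

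Malat1, the speckle RNA, was the most abundant gene of the set and moved less as a ratio. It stood at 13709 CPM in the control, 17463 at 1 h, 21810 and 17576 in the 4 h pair and 20466 at 8 h. Every library after seizures was above the control, with ratios of 1.27, 1.59, 1.28 and 1.49 in that order. At this depth counting error was negligible (1.58 to 1.60 for library 1 at 4 h), so the spread between libraries sets the precision. For the 1 h, 4 h and 8 h time points the fitted log2 values were 0.35 ± 0.24, 0.52 ± 0.21 and 0.58 ± 0.24, with an adjusted p of 1, 0.432 and 1.00 in edgeR's quasi-likelihood test, adjusted after Benjamini-Hochberg. Without a filter on low counts edgeR called it at 4 h, where the adjusted p over the 8 alternatives ran from 0.0447 to 0.665. The control was lowest and library 1 of the 4 h pair highest both for Malat1 and for the share of reads on no gene, and the part of that share was not tested.

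Scaffolds and partners were compared with the proteins of the same bodies. Counts of genes past 1.5-fold are against the control, and at 4 h both libraries had to pass; over all 19768 genes tested 10.9%, 10.1% and 14.1% were higher in this way for the 3 time points and 9.2%, 6.28% and 8.94% lower. Genes with few counts are part of these shares: among 9660 protein-coding genes with a mean of at least 10 CPM, 3.48%, 6.22% and 3.56% were higher and 1.04%, 3.43% and 3.98% lower. Of 17 paraspeckle proteins, none passed at any time point by this rule, and 2 were past 1.5-fold higher in library 1 of the 4 h pair alone. The share of all genes past it in that library alone is not given here, so this count has no background to be read against. Median log2 changes of the 17 paraspeckle proteins for the 3 time points were 0.05, 0.26 and 0.05, against -0.01, 0.01 and 0.01 over all genes. The most abundant were Hnrnpk, Matr3 and Ewsr1, with log2 changes of 0.28, 0.26 and 0.11 at 4 h. Of 17 speckle proteins, 2 were past 1.5-fold higher at 1 h (10.9% of all genes were) and none at 4 h or 8 h, with a median of 0.12, 0.26 and 0.02. In library 1 of the 4 h pair alone, 3 were past 1.5-fold higher, again with no share of all genes for that library alone. The most abundant were Son, Srsf5 and Srrm2, with log2 changes of 0.10, 0.94 and 0.24 at 1 h and 0.26, 0.51 and 0.25 at 4 h. Srsf5 went from 216 CPM in the control to 415 at 1 h, and none of these was called.

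**Figure D2:**
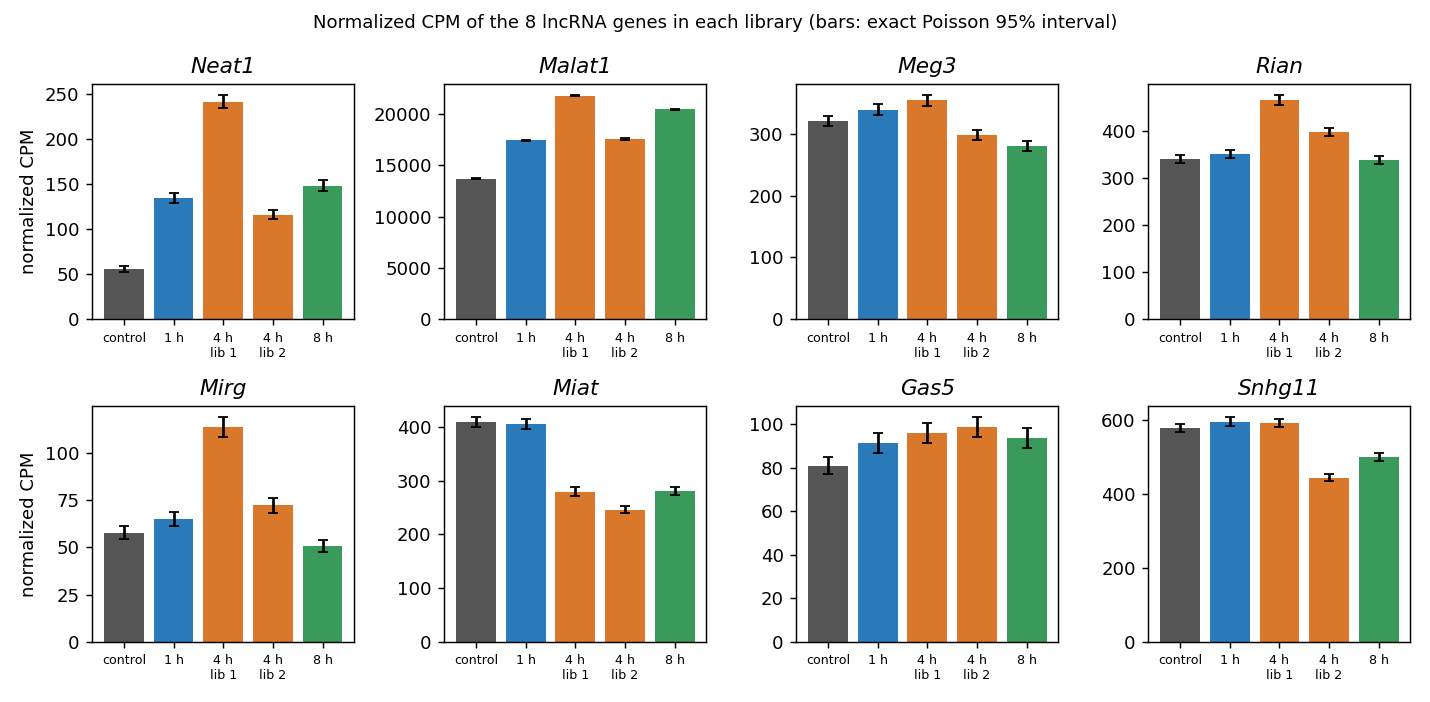
Each panel is 1 gene, with bars for the normalized CPM of each library on a linear axis from 0 and error bars for the exact Poisson 95% interval, which covers counting error only. Neat1 goes from 55.9 in the control to between 116 and 242 CPM after seizures, and Miat lies between 246 and 280 CPM at 4 h and 8 h against 409 in the control.

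Meg3, the first RNA of the imprinted region, changed little. Its level was 321 CPM in the control, 339 at 1 h, 354 and 298 in the 4 h pair and 280 at 8 h. The 4 h libraries lay on either side of the control, with ratios of 1.10 and 0.928. The 8 h ratio was 0.874 (0.842 to 0.907). Log2 changes were 0.08 ± 0.21, 0.02 ± 0.18 and -0.19 ± 0.21, and none was called. Rian, the snoRNA host, was at 340 CPM in the control, 350 at 1 h, 465 and 397 in the 4 h pair and 337 at 8 h. Both 4 h libraries were above the control, by ratios of 1.37 and 1.17, while 1 h and 8 h stayed within counting error of it. The log2 change at 4 h was 0.34 ± 0.18, with an adjusted p of 0.523 in edgeR's quasi-likelihood test, adjusted after Benjamini-Hochberg. Mirg, the miRNA host, was at 57.9 CPM in the control, 64.8 at 1 h, 114 and 72.2 in the 4 h pair and 50.6 at 8 h. Its 4 h libraries were both higher than the control, by 1.96 and 1.25, but differed from each other by a ratio of 1.57. At 8 h the ratio was 0.874 (0.80 to 0.955). The log2 change was 0.68 ± 0.30 at 4 h (adjusted p 0.462) and -0.88 ± 0.31 between 8 h and 4 h (adjusted p 0.544), both in edgeR's quasi-likelihood test, adjusted after Benjamini-Hochberg. Without a filter the edgeR test called the difference between 8 h and 4 h, with an adjusted p over 8 alternatives from 0.00589 to 0.618. Mirg was thus above the control at 4 h in both libraries and below it at 8 h, with no call in the analysis chosen as main. Library 1 at 4 h, which stood apart in the choroid plexus, activity and no-gene values, had the larger change in Mirg and Rian, and this was not tested.

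The other transcripts of the region were counted too. The 39 miRNA genes outside Meg3, Rian and Mirg had 284 counts in the control, 278 at 1 h, 468 and 311 in the 4 h pair and 222 at 8 h, of which 25 genes had any. All 25 lie between B830012L14Rik and Mirg, from Mir379 to Mir544. The miRNA genes between Meg3 and Rian, from Mir673 to Mir136, were listed at 0 in all libraries, as was Mir882. For the summed counts the ratio to control was 1.95 (1.68 to 2.27) and 1.15 (0.978 to 1.36) in the 4 h libraries and 0.887 (0.741 to 1.06) at 8 h. B830012L14Rik, the neighbour of Rian, had ratios of 2.15 and 1.15 at 4 h and 0.874 at 8 h. As for Meg3 and Mirg, library 1 of the 4 h pair was highest and 8 h lowest, and the ratio in library 1 was nearer to that of Mirg (1.96) than of Meg3 (1.10). The 14 miRNA genes inside Mirg, of which 8 had counts, had 104, 105, 164, 125 and 89 counts, and Mir453 (196 in all), Mir541 (130) and Mir496a (107) had the most. The reads are longer than a mature miRNA, so counts on these genes are fragments of longer RNA and are no measure of mature miRNAs. The 13 snoRNA and 4 miRNA genes annotated within Rian were listed at 0 in all libraries.

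**Figure D3:**
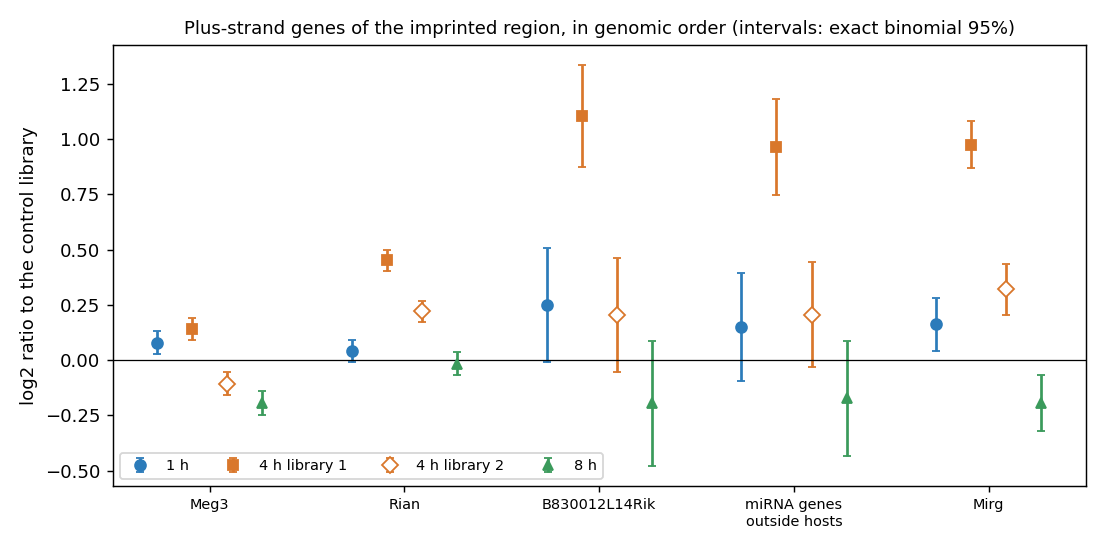
Points give the log2 ratio of each library to the control for Meg3, Rian, B830012L14Rik, the 39 miRNA genes outside the 3 hosts and Mirg, with exact binomial 95% intervals for counting error. Library 1 at 4 h is highest for each, at a ratio of 1.10 for Meg3 and 1.96 for Mirg. Of the 39 miRNA genes, only those between B830012L14Rik and Mirg had counts.

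Of 7 other genes listed for the imprinted region and its flanks, 4 passed the filter, and their median log2 change was -0.25, -0.34 and -0.37. Only Ppp2r5c, with 191 CPM in the control, was above 0 at every time point, and Begain, Wdr25 and Dio3 were below. Dio3 was past 1.5-fold lower at each time point, 1 of the 4 tested, with few counts: 59 in the control, 7 at 1 h, 8 and 16 in the 4 h pair and 1 at 8 h, and log2 changes of -2.60, -1.99 and -4.20. Of 33 tested imprinted genes of other regions, 5 were past 1.5-fold higher and 3 lower at 1 h, 7 and 1 at 4 h, and 3 and 4 at 8 h. Over all genes 10.9% were higher and 9.2% lower at 1 h, 10.1% and 6.28% at 4 h, and 14.1% and 8.94% at 8 h. The 33 had median log2 changes of -0.0011, 0.13 and -0.17. Gnas, Peg3 and Snhg14 were the most abundant, with log2 changes at 4 h of -0.04, 0.13 and 0.13. For Peg3 (ratios of 1.24 and 0.945) and Snhg14 (1.27 and 0.919) the 4 h libraries lay on opposite sides of the control.

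Miat, the neuronal nuclear RNA, had the lowest ratio to control of the 8 genes. It had 409 CPM in the control, 406 at 1 h, 280 and 246 in the 4 h pair and 280 at 8 h. The control and 1 h libraries did not differ beyond counting error (ratio 0.992, interval 0.961 to 1.02), and the 3 later libraries all lay below both. The ratio to control was 0.684 and 0.602 at 4 h and 0.686 at 8 h. The log2 change was -0.64 ± 0.17 at 4 h, adjusted p 0.328, and -0.54 ± 0.20 at 8 h, adjusted p 1.00, in edgeR's quasi-likelihood test, adjusted after Benjamini-Hochberg. Between 4 h and 1 h it was -0.63 ± 0.17, adjusted p 0.515 in edgeR's quasi-likelihood test, adjusted after Benjamini-Hochberg. Over 8 alternatives the adjusted p at 4 h ran from 0.0143 to 0.431, and only the edgeR fit without a filter called Miat, there and between 4 h and 1 h. Fewer cells of a type and less RNA per cell cannot be told apart in these bulk libraries, and the 6 dentate granule cell markers, led by Prox1, had a summed level of 294, 301, 226, 202 and 299 CPM. In the 4 h libraries 5 of those 6 markers were past 1.5-fold lower and Prox1 was higher, against 6.28% lower and 10.1% higher of all genes tested. Their part in the level of Miat was not tested.

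Gas5, a snoRNA host, was 81.0 CPM in the control, 91.3 at 1 h, 95.9 and 98.7 in the 4 h pair and 93.6 at 8 h. All 4 later libraries were above the control, by ratios of 1.13 to 1.22, and the 4 h pair did not differ beyond counting error. The log2 change was 0.17 ± 0.19, 0.26 ± 0.17 and 0.21 ± 0.19, smaller than 2 standard errors. Snhg11, a host that is abundant in neurons, had 580 CPM in the control, 597 at 1 h, 592 and 444 in the 4 h pair and 501 at 8 h. Library 2 at 4 h and the 8 h library lay below the rest, with ratios of 0.766 and 0.865. The log2 change was 0.04 ± 0.25, -0.16 ± 0.22 and -0.21 ± 0.25. Of 18 other host genes, all of snoRNAs but Mir17hg, which hosts miRNAs, 4 were past 1.5-fold higher and 2 lower at 1 h, 4 and none at 4 h, and 2 and none at 8 h. Over all genes 10.9% were higher and 9.2% lower at 1 h, 10.1% and 6.28% at 4 h, and 14.1% and 8.94% at 8 h. The 18 had median log2 changes of 0.07, 0.36 and 0.17. Snhg14, Zfas1 and Snhg12 were the most abundant, with log2 changes of 0.13, 0.37 and 0.32 at 4 h, the first from libraries on opposite sides of the control. Of 28 mRNAs with the same kind of 5′ tract as Gas5, led by Eef1a1, Eef2 and Rpl3, 1 was past 1.5-fold higher at each time point and none lower, against 10.1% higher of all genes at 4 h, with medians of 0.06, 0.13 and 0.05.

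Promoter sequences from RefSeq (GRCm38.p6) were at hand for 7 of the 8 genes, all but Neat1. For Mirg the start used (chr12:109734981) lies inside the GENCODE gene, which begins at 109729764. The bases before that GENCODE start were therefore not searched. The letters TGACGTCA, a cAMP response element, were searched on both strands and are in 1.79% of 32851 promoters of 300 bases. They are in one start of Meg3 and in one of Gas5, printed here because these are the only matches among the 7 genes searched. Capitals mark the match, and in Gas5 also a pyrimidine run that begins 1 base before the annotated start. Such a run was required to be a C within 5 bases of the start followed by at least 5 pyrimidines, and is in 10.2% of promoters. The core TGACG, which is part of the longer letters, is in 20.8% of promoters and was also found in Malat1. TGANTCA (7.81%), GCGNGGGCG (5.55%) and CACGTG (7.15%) were not found in any of the windows. A CArG box (1.63%) was found in the other start of Meg3, and a pyrimidine run that begins 1 base before the start in Miat. A match is a description of letters only.
Meg3 (GRCm38.p6, chr12:109540746-109541045, plus strand): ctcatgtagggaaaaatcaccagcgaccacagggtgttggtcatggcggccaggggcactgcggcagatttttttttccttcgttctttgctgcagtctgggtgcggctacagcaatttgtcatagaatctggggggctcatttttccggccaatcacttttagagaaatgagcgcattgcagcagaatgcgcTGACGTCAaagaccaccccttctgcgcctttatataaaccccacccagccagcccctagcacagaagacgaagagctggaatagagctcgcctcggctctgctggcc
Gas5 (GRCm38.p6, chr1:161034916-161035215, plus strand): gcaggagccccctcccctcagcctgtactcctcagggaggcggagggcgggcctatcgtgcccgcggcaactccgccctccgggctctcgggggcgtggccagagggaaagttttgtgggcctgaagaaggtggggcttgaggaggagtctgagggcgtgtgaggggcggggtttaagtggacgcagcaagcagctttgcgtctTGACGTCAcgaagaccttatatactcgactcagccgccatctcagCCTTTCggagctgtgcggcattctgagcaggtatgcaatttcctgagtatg

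Across the whole table, edgeR's quasi-likelihood test, adjusted after Benjamini-Hochberg called 0 of 19768 genes at 1 h (0%), 1 at 4 h (0.00506%) and 0 at 8 h (0%), 1 between 4 h and 1 h (0.00506%) and 0 between 8 h and 4 h (0%). At an unadjusted p under 0.05 it gave 478, 2291, 892, 1569 and 1726 genes, and DESeq2 called 56, 238, 33, 109 and 129. The 1 gene called was ETV3L, which was named after its values were seen. None of the 8 genes was called, and 1, 2, 2, 1 and 1 of them had an unadjusted p under 0.05 in the edgeR test. Of all genes tested, 2.42%, 11.6%, 4.51%, 7.94% and 8.73% had such a p, in the same order. By the fold rule, 1 of 8 was at least 1.5-fold higher at 1 h, Neat1, where 10.9% of all genes were; none was lower, against 9.2%. At 4 h, in both libraries, 1 was higher, again Neat1, against 10.1%, and none lower, against 6.28%. At 8 h 1 was higher, against 14.1%, and none lower, against 8.94%. Among the 130 genes of long non-coding biotypes with a mean of at least 10 CPM, 11.5%, 8.46% and 6.15% were higher for the 3 time points and 5.38%, 6.15% and 6.15% lower. Median log2 changes of the 8 for the 3 time points were 0.12, 0.30 and -0.10, beside -0.01, 0.01 and 0.01 over all genes, and 7, 6 and 3 of 8 were above 0. Of all genes tested, 49.1%, 50.8% and 51.1% were above 0. With library size alone Rian (-0.033) and Snhg11 (-0.031) fell below 0 at 1 h and Meg3 (-0.11) at 4 h, while Rian at 8 h rose above it (0.0028).

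**Figure D4:**
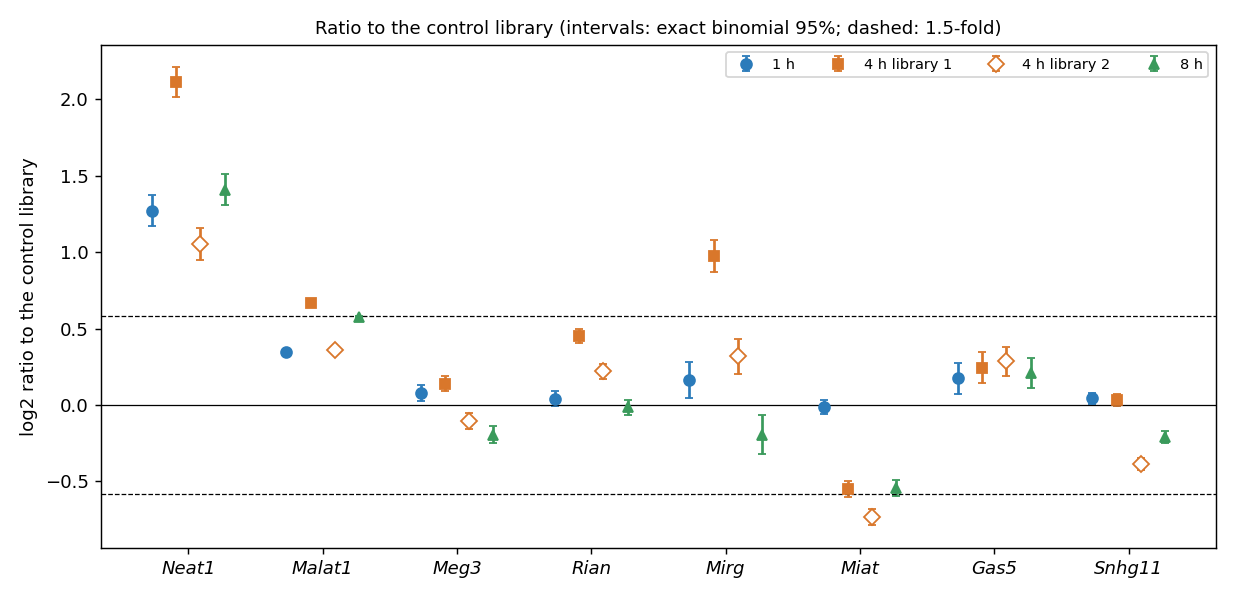
Points are the log2 ratio of each library after seizures to the control library for each gene, with exact binomial 95% intervals for counting error, and dashed lines mark 1.5-fold. Neat1 is past the upper line in all 4 libraries, and Miat past the lower line in library 2 at 4 h alone.

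Likeness of pattern was measured as Pearson's r of log2(CPM + 2) over the 5 libraries, among 9975 genes with a mean of at least 10 CPM, and is a description over few libraries. For Neat1 the closest were Strn3, Pan3 and Ttn (r 0.998, 0.997 and 0.992), for Malat1 Cnksr2, Myh9 and Gm6210, for Meg3 Trafd1, Amy1 and Lrrfip2, and for Rian Rpl35, Srsf1 and Erc1. For Mirg they were Atp6v1h, Ugdh and Snx21, for Miat Pacs1, Ube2e2 and Vwa5b2, for Gas5 Tyro3, Sorcs1 and Pcsk6, and for Snhg11 Tbr1 and Cux1. Genes with r of at least 0.95 numbered 60 for Neat1, 43 for Malat1, 92 for Meg3, 569 for Rian, 408 for Mirg, 183 for Miat, 43 for Gas5 and 33 for Snhg11. With library size alone the numbers in the same order were 33, 21, 48, 293, 179, 250, 19 and 26.

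Nearest tested genes beside the 8 were also read. Frmd8, 4224 bases from Neat1, had log2 changes of 0.08, 0.02 and 0.25. Ralgapb, beside Snhg11, had 0.03, -0.03 and -0.03. Rc3h1 near Gas5 had 0.06, 0.20 and 0.02, and Snhg17 on the other side of Snhg11 had -0.60, 0.53 and 0.18. Begain, far upstream of Meg3, had -0.09, -0.16 and -0.43. The neighbours of Miat, Cryba4 and E130006D01Rik, had at most 11 counts in a library, too few to compare. Mir544 beside Mirg had few counts, 12 in the control, 14 at 1 h, 29 and 20 in the 4 h pair and 7 at 8 h, highest in library 1 at 4 h and lowest at 8 h as Mirg was, and Gm3379 on its other side had between 35 and 58.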

How the data were processed

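Per the labels, the authors made libraries from hippocampal total RNA with a stranded kit, aligned reads with STAR 2.5.1b to GRCm38.p4 and deposited counts per gene from HTSeq, with no normalization; for HTSeq the version, annotation release and strand setting were not stated. The 8 members and all lists were chosen with earlier results of these data known. Of 55385 identifiers, 55144 were found in GENCODE release M21. Counts were fitted with edgeR 4.0.16 in R 4.3.3 (quasi-likelihood, TMM, prior count 2, filterByExpr, 1 residual degree of freedom from the 4 h pair, Benjamini-Hochberg over 19768 genes, threshold 0.05), so single libraries are assumed to vary like that pair. DESeq2 1.42.0 and limma-voom 3.58.1 were alternatives. Genes named from a list are its 3 most abundant, except Dio3, the last of the 4 tested in its list, which was added after its values were seen, and a few genes that the naming rules pick are not reported here. Ratios have exact binomial and levels exact Poisson 95% intervals; the floor is 3 counts. Ambiguous reads were 1.26% to 1.52% of reads.

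The fit was tested on simulated counts with known changes. When noise followed the fitted trend with abundance, false calls of edgeR and DESeq2 stayed near or under the threshold and those of limma-voom exceeded it at 8 h. When each gene was given its own estimated dispersion, all 3 tools made several times more false calls than the threshold allows. The trend version was added after the other had been seen to fail. Adjusted p-values of this design, and the calls made by the alternatives, are therefore not assured to hold their nominal rate. Fold changes were recovered with little bias under both.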

Additional observations from a re-analysis of the deposited data

Results flagged for a closer look

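In 3 genes every library of one time point lay above the control and every library of another below it, beyond counting error. For Mirg the mean log2 level at 8 h was -0.84 relative to 4 h, where edgeR's quasi-likelihood test, adjusted after Benjamini-Hochberg gave an adjusted p of 0.544, and -0.36 relative to 1 h. For Meg3 it was -0.27 relative to 1 h and for Snhg11 -0.25 relative to 1 h. With library size alone the log2 change at 1 h was -0.031 for Snhg11, on the other side of the control, and 0.0061 for Meg3, above it by little. The differences between 8 h and 1 h were not tested and rest on 1 library a side.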

How the results depend on the processing

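Of 320 alternative values with a test for the 8 genes, 305 kept their direction and their side of the threshold, 8 became called and 7 changed sign. Of 48 values with a 4 h library left out, 7 changed sign (Neat1, Malat1, Meg3 and Snhg11). Genes called at 1 h numbered 57 with library size alone, 285 without a filter, 1 with 10 counts in every library, 1 with robust estimation and 56 with DESeq2. At 4 h they were 237, 1300 and 238 with library size alone, no filter and DESeq2, and 0 with median-of-ratios factors, 10 counts in every library and limma-voom. At 8 h they were 22, 279 and 33 with library size alone, no filter and DESeq2. Between 4 h and 1 h they were 67, 725 and 109 with those 3, and 0 with median-of-ratios factors, 10 counts in every library and limma-voom. Between 8 h and 4 h they were 120, 957 and 129. The cause was not tested. Members past 1.5-fold at 4 h numbered 2 with library size alone (Neat1 and Miat) and between 2 and 3 with either 4 h library left out; at 8 h there were 2 with library size alone (Neat1 and Malat1). With library size alone the log2 change of Meg3 at 4 h was -0.11, of Rian -0.033 at 1 h and 0.0028 at 8 h, of Snhg11 -0.031 at 1 h and 0.10 between 8 h and 4 h, and of Gas5 0.086 between 8 h and 4 h, and that of Rian at 8 h was 0.0089 with 10 counts in every library. Of the 3 genes most like each member, Ttn (Neat1), Gm6210 (Malat1), Snx21 (Mirg), Pacs1 (Miat) and Cux1 (Snhg11) were named again with library size alone, and none for Meg3, Rian or Gas5. Leaving out a 4 h library leaves no residual degree of freedom, so it gave no test. No paired analysis was possible because the groups compared share fewer than 2 replicate numbers. A count of 3, the floor, is worth between 0.151 and 0.178 CPM, so depth did not limit the 8 genes.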

Other observations

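Other lists were described by counts and medians. Of all genes tested, 10.9% were past 1.5-fold higher and 9.2% lower at 1 h, 10.1% and 6.28% at 4 h, and 14.1% and 8.94% at 8 h. Of 27 tested long non-coding RNAs known in brain, 4 were past 1.5-fold higher and 1 lower at 1 h, 3 and 1 in both libraries at 4 h, against 10.1% and 6.28% of all genes tested, and 2 and 2 at 8 h, with median log2 changes of 0.13, 0.05 and -0.04; Gm26917, Oip5os1 and Snhg14 were the most abundant. Of 13 tested short RNAs without a poly(A) tail, led by Rn7sk, Rn7s2 and Rn7s1, 1 was past 1.5-fold higher and 1 lower at 1 h, none at 4 h and 1 lower at 8 h. Of 11 tested adjacent genes, Ralgapb and Zbtb37 among them, 1 was past 1.5-fold higher and 1 lower at 1 h and none at 4 h or 8 h. Of 12 activity-induced mRNAs, led by Arc, Fos and Ptgs2, 12 were past 1.5-fold higher at 1 h and 8 in both libraries at 4 h, against 10.9% and 10.1% of all genes; at 8 h 5 were higher and 4 lower. Median log2 changes for the 3 time points were 0.02, -0.0043 and -0.15 for neuron markers; -0.03, -0.24 and -0.05 for pyramidal cell markers; 0.07, 0.31 and -0.01 for astrocyte markers; 0.09, 0.08 and -0.16 for oligodendrocyte precursor markers; 0.10, -0.05 and 0.08 for microglia markers; -0.09, -0.02 and 0.34 for endothelial and mural markers; and -0.22, 0.59 and 0.33 for blood markers.

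Among 131 genes of long non-coding biotypes or of the 8, with a mean of at least 10 CPM, Neat1 ranked 6 from the highest log2 change at 1 h, 5 at 4 h and 1 at 8 h. Miat ranked 11 from the lowest at 4 h and 10 at 8 h.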
